A study of Danio rerio with 12 samples.

Results

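Cell cycle genes other than the MCM helicase were followed tube by tube in microglia of zebrafish larvae at 3 days post fertilisation. Members were selected by gene symbol, ignoring case, or by the capital symbol that paralogues share. Of 50 members written, 48 matched, 44 by their own symbol and 4 (birc5a, stmn1a, hmgb2a and ccnd2a) by the shared one, and ube2c and cenpa had no match. RRM2, STMN1 and CCND2 each stood for 2 gene IDs, so the members held 51 of the 35117 gene IDs in the table. By role, 24 IDs belonged to S phase, 23 to G2 and mitosis (below, mitosis) and 4 to G1. A count was present for 50 of them, and DUT (ENSDARG00000106529), whose product keeps uracil out of DNA, had 0 counts in all 12 tubes. Symbols in capitals, used in the files for many genes, stand here for the zebrafish gene with that ID.

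The study measured poly(A) RNA by Smart-seq2, a full-length amplification of cDNA from very few cells. The 4 genotypes were siblings, mafba mutants, mafbb mutants and a group labelled DMut, which the sources used here do not spell out. All carried Tg(mpeg1:DsRedx), a red fluorescent reporter under the promoter of mpeg1, a gene of macrophages and microglia. For each genotype 3 tubes were filled, each with 3 DsRed-positive cells picked by hand from the dissociated brains of about 10 embryos, 36 cells in all. The labels do not say if tubes of 1 genotype were dissociated separately, and the p-values therefore reflect a tube-to-tube spread that may be technical. A tube is a pool, so fewer cells in a phase and less RNA per cell cannot be told apart.

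A dividing cell copies its DNA in S phase and separates the copies in mitosis. In vertebrates the genes of both steps are silent or low in resting cells and are transcribed in waves. The first wave, from late G1, supplies the replication machinery and the enzymes that make deoxynucleotides, and the second, in G2, supplies cyclin A and B, the kinase CDK1, the spindle motors and the checkpoint proteins. Transcripts of the second wave are removed after division, so their joint presence marks a cell in G2 or mitosis, whereas replication transcripts alone are typical of late G1 and S phase. Microglia of the zebrafish larva settle in the brain as macrophages and then multiply there.

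Total counts ranged from 10014888 to 17689266 a tube, and genes with a count from 5100 to 10521. The 3 mafbb tubes had the fewest genes (5100 to 6141) and the largest shares of ERCC spike-in RNA (0.662% to 0.798%), and mafba replicate 2 the most genes (10521) and the smallest spike-in share (0.0946%). Microglia markers took 4.46% to 6.40% of gene counts in siblings, 1.34% to 5.55% in mafba, 1.94% to 3.97% in mafbb and 0.126% to 0.168% in DMut, where apoeb and apoc1 had 0 counts. Pan-myeloid markers took 0.432% to 0.841% over all 12 tubes, and the oligodendrocyte list was at 0 in all of them. The pan-myeloid sum covers genes that moved apart in DMut. MFAP4 ENSDARG00000089667 was at 178 to 278 CPM in siblings and 0 to 9.02 in DMut, and marco was at 0 in all DMut tubes. In contrast, cybb was at 45.3 to 129 CPM in siblings and 370 to 744 in DMut, and ptprc overlapped. The mafba gene (ENSDARG00000017121) had counts in every tube, at 194 to 309 CPM in siblings and 387 to 613 CPM in mafba. The gene mafbb (ENSDARG00000070542) was counted in 3 tubes, with 17 counts at most, and in no mafbb tube. Neither level can check a label, since mutant alleles may still be transcribed. CPM are a gene's counts per 1000000 counts of the tube, on library sizes scaled by TMM (trimmed mean of M values), and a gene is called detected here at 10 CPM or more.

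Mitosis genes were detected together in 1 of the 12 tubes, mafba replicate 2. To ask for a coordinated G2 and mitosis program, 19 IDs were taken apart from STMN1, HMGB2 and hmgb2b, which cells outside the cycle can also hold. Of these 19, mafba replicate 2 held 18 at 10 CPM or more, and CCNB2 there stood at 9.24 CPM. The other 11 tubes held 0 to 3 of them, and 5 of those tubes held none. In sibling replicates 1 to 3 the numbers were 2, 3 and 0, in mafba replicates 1 and 3 both 0, in mafbb 3, 0 and 1, and in DMut 1, 0 and 1. The 19 IDs took 0.495% of gene counts in mafba replicate 2 and at most 0.0216% elsewhere (mafbb replicate 1), a 22.9-fold difference between these tubes. With STMN1, HMGB2 and hmgb2b included, the 23 mitosis IDs took 0.745% there and 0.0309% to 0.0884% in the other 11 tubes.

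**Figure D1:**
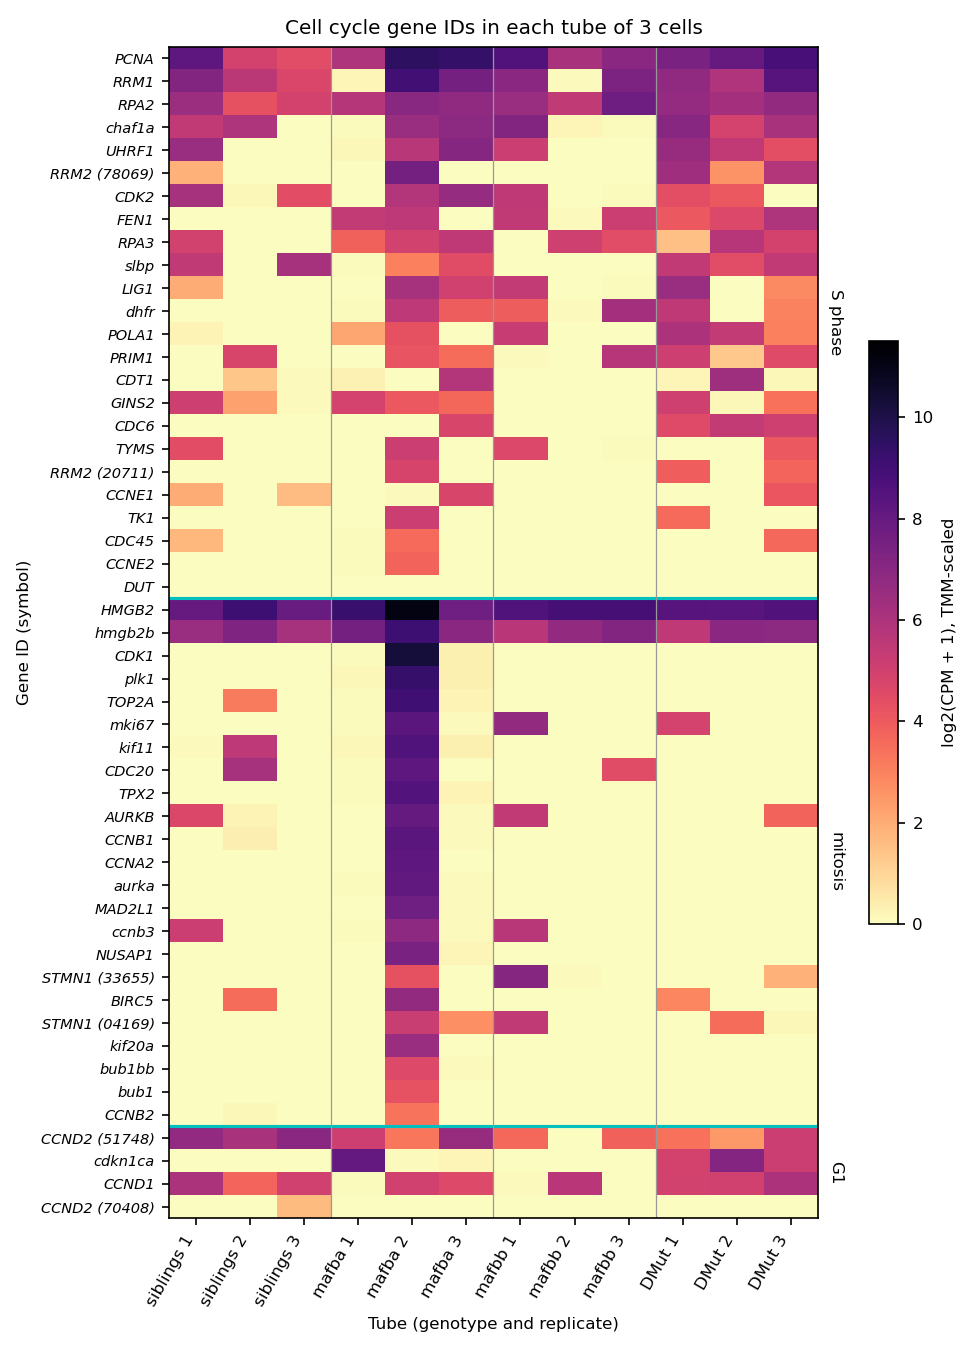
Level of each of the 51 member IDs (rows, by list and mean) in each of the 12 tubes (columns), as log2(CPM + 1). Numbers in brackets are the last digits of the ID where a symbol stands for 2 IDs. The mitosis block is filled throughout in mafba replicate 2 alone, HMGB2 and hmgb2b are dark in every tube, and S phase genes are spread over several tubes.

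The cyclins and their kinase showed the pattern most plainly. CDK1 (ENSDARG00000087554), the kinase that drives entry into mitosis, was at 1228 CPM in mafba replicate 2, at 0.0532 and 0.271 CPM in mafba replicates 1 and 3, and at 0 in the other 9 tubes. CCNA2, its cyclin partner from S phase to early mitosis, was at 299 CPM in mafba replicate 2 and at 0 in the other 11 tubes. CCNB1, the partner at mitotic entry, was at 311 CPM there, at 0.303 in sibling replicate 2, at 0.0676 in mafba replicate 3 and at 0 elsewhere. For all 3, then, the mafba tubes spanned nearly the whole range, and siblings, mafbb and DMut did not differ at this depth. A count of 0 over the 11 tubes other than mafba replicate 2 allows up to 0.0207 CPM by 3 counts, a limit that covers counting error only, since reads carried no molecular identifiers.

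The kinases, motors and checkpoint genes followed. The mitotic kinases plk1 and aurka were at 643 and 277 CPM in mafba replicate 2 and at most 0.271 CPM in any other tube. Here plk1 was at 0.106 and 0.271 CPM in mafba replicates 1 and 3 and at 0 elsewhere. TOP2A, the topoisomerase that untangles sister chromatids, was at 536 CPM there, at 7.87 CPM in sibling replicate 2, at 0.0532 and 0.203 in mafba replicates 1 and 3, and at 0 elsewhere. The motor kinesin kif11 was at 387 CPM there and at 46.1 CPM in sibling replicate 2, with at most 0.271 CPM in the other 10 tubes. TPX2 and NUSAP1, which build spindle microtubules, were at 363 and 166 CPM, and the spindle motor kinesin kif20a was at 92.4 CPM. The spindle checkpoint genes MAD2L1, bub1bb and bub1 were at 207, 23.0 and 18.2 CPM there. Outside mafba replicate 2 none of the 12 members detected there alone exceeded 7.87 CPM. Of the 23 mitosis IDs these are 52.2%, whereas 1.97% of the 16088 gene IDs with a count were detected in that tube alone. CCNA2, bub1 and kif20a, 3 of 23, had counts in no other tube at all, beside 3.96% of all gene IDs with a count.

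The level of 21 of the 23 mitosis IDs (91.3%), and of all 19 without STMN1, HMGB2 and hmgb2b, was highest in mafba replicate 2. Of all gene IDs with a count 11.1% were highest there, and of the S phase IDs 7 of 23 (30.4%). Microglia markers in the same tube took 5.55% of gene counts, within the range of siblings, with apoeb at 40200 CPM. Erythroid and oligodendrocyte markers were at 0 there. Endothelial markers took 0.0184% there (3 of 12 IDs counted) and 0% to 0.0316% in the other tubes. The 3 were stab1 at 167, FLI1 at 9.97 and TIE1 at 32.8 CPM, the last at its highest level of the 12 tubes, while kdrl and cdh5 were at 0 in every tube. Neuronal markers without STMN1 took 0.00270% there (3 of 10 IDs counted) and 0% to 0.0110% in the other tubes. Neural progenitor and radial glia markers took 0.0119% (4 of 17), where the other 11 tubes ranged from 8.65e-06% to 0.0482%. The 4 counted were ID1 at 90.1, NOTCH1 at 21.9 and the pair of FABP7 IDs at 17.7 and 5.98 CPM, while SOX2, GFAP, her4.1 and her4.2 were at 0 in every tube. The part of these markers in the mitosis values was not tested.

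Single mitosis genes appeared in 6 other tubes, never more than 3 at a time. Sibling replicate 1 held ccnb3, a B-type cyclin, at 34.9 CPM and AURKB, the kinase of the chromosomal passenger complex, at 24.5 CPM. Sibling replicate 2 held CDC20, which activates the anaphase-promoting complex, at 72.1 CPM, kif11 at 46.1 CPM, as above, and BIRC5, the passenger protein survivin, at 10.6 CPM. Both tubes lacked a detected cyclin A, cyclin B1, cyclin B2 or CDK1. In mafbb replicate 1 ccnb3 was at 50.9 CPM, AURKB at 42.0 CPM and mki67, which codes for the proliferation marker Ki-67, at 105 CPM. In mafbb replicate 3 CDC20 was at 21.7 CPM, in DMut replicate 1 mki67 at 28.2 CPM and in DMut replicate 3 AURKB at 12.4 CPM. Single detections of this kind were thus present in siblings, mafbb and DMut, and in each tube most of the 19 genes were missing. In mafba replicate 2 these genes stood higher, with CDC20 at 301, mki67 at 316, AURKB at 256, ccnb3 at 113 and BIRC5 at 104 CPM. Beyond the tubes named, mki67 was at 0.0532 and 0.0676 CPM in mafba replicates 1 and 3 and at 0 elsewhere.

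Mafba replicates 1 and 3 held a different picture, many mitosis genes at 1 to 4 counts each. In mafba replicate 1, 9 of the 19 IDs had a count, 11 counts in all, and in mafba replicate 3, 13 of 19 had a count, 27 in all. These are 0.0176% and 0.0433% of the 62345 counts of the same IDs in mafba replicate 2. Sibling replicate 3, mafbb replicate 2 and DMut replicate 2 had 0 counts of all 19. Over the whole table, 18 genes had at least 1000 counts in mafba replicate 2 and at most 5 in every other tube. Of these genes mafba replicates 1 and 3 held 17 and 22 counts, and each of the other 9 tubes 0 to 3. Such traces were not confined to mafba tubes. By the same limits, 9 genes of mafbb replicate 3 had 6 and 5 counts in mafbb replicates 1 and 2 and 0 elsewhere. For 7 genes of mafbb replicate 1 there were 4 and 3 counts in mafbb replicates 2 and 3, and 3 in mafba replicate 2. For 5 genes of mafba replicate 1 there were 3 and 6 counts in mafba replicates 2 and 3, and 4 in DMut replicate 3. The source of these traces was not tested.

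HMGB2 and hmgb2b, chromatin proteins that are abundant in dividing cells and also present outside division, were detected in all 12 tubes. HMGB2 (ENSDARG00000029722) was at 251, 552 and 239 CPM in siblings 1 to 3, at 593, 2252 and 210.3 in mafba, at 386, 481 and 483 in mafbb and at 341, 328 and 381 in DMut. Mafba replicate 2 stood far above the rest, and the remaining 11 tubes overlapped between genotypes except that every DMut tube lay below every mafbb tube. Its paralogue hmgb2b was at 90.8, 149 and 71.8 CPM in siblings, at 189.8, 542 and 123 in mafba, at 48.1, 105 and 140.4 in mafbb and at 43.9, 122 and 119.8 in DMut. Here every mafba tube lay above every DMut tube, by a narrow margin for the lowest mafba tube.

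The symbol STMN1, for the microtubule regulator stathmin, stands for 2 IDs, and the files do not say which is stmn1a and which is stmn1b, a gene of neurons in zebrafish. ENSDARG00000033655 was at 134 CPM in mafbb replicate 1, 18.6 in mafba replicate 2, 2.66 in DMut replicate 3, 0.0738 in mafbb replicate 2 and 0 in the other 8 tubes. ENSDARG00000004169 was at 43.4 CPM in mafbb replicate 1, 36.1 in mafba replicate 2, 10.4 in DMut replicate 2, 5.41 in mafba replicate 3 and 0.106 in the third DMut tube, with 0 elsewhere. Both IDs peaked in mafbb replicate 1. The other 10 IDs of the neuronal list took 0.00544% of gene counts there, below the 0.0110% of mafba replicate 1, a tube with 0 counts of both STMN1 IDs. In mafbb replicate 1 only 2 of these 10 had a count, SNAP25 (ENSDARG00000020609) at 47.3 CPM and ELAVL3 at 2.5 CPM. In mafba replicate 1, ELAVL4 was at 31.9, tubb5 at 62.3 and the other SNAP25 ID at 8.72 CPM. The part of neuronal RNA in the STMN1 values was not tested.

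S phase genes were detected in more tubes than mitosis genes. Of the 24 S phase IDs, sibling replicates 1 to 3 held 10, 5 and 5, mafba 5, 19 and 15, mafbb 11, 3 and 7, and DMut 17, 12 and 15. The means were 6.67, 13, 7 and 14.7 IDs. Mafba replicate 2 was highest, and DMut was the group in which every tube held more S phase IDs than every sibling tube. That gap depends on the threshold, since at 1 CPM the numbers were 18, 14 and 19 in DMut against 14, 7 and 6 in siblings, and at 50 CPM 8, 5 and 6 against 5, 1 and 1, each with a tie. More genes of all kinds had a count in the DMut tubes (7993, 7808 and 9297) than in the sibling tubes (7077, 7541 and 7665), while genes at 10 CPM or more overlapped (5543, 5347 and 6014 against 5094, 5267 and 5509). Mafba replicate 3 and the DMut tubes, all high in S phase genes, also had the highest shares of epidermal and metaphocyte markers (0.113% and 0.0127% to 0.140%, at most 0.00873% elsewhere). In the tube with the most S phase IDs, mafba replicate 2, these markers took only 0.000119% of gene counts. One gene, cldni, held all 17370 of these counts in mafba replicate 3 and 15006 of 15641 in DMut replicate 3. Without cldni the list took 0.00493% to 0.00717% in DMut, with cdh1 and cd9b counted in each tube, 0% in mafba replicate 3 and at most 0.00130% elsewhere. Other members of the list did not share this pattern. The keratin krt4 was at 20.4 CPM in DMut replicate 3 and 0.157 in DMut replicate 1, and epcam at 4.94 CPM in DMut replicate 1 alone. TP63 was highest in sibling replicate 1, at 10.5 CPM, and krt5, cldna and grhl3 were at 0 in every tube. Neutrophil markers were highest in the DMut tubes (0.0375% to 0.0497%) and mafba replicate 3 (0.0308%). They took 0.0135% in mafba replicate 2 and at most 0.0259% elsewhere. Apart from srgn, which was counted in every tube, the main one was mmp25b, at 127 to 195 CPM in DMut, 51.9 in mafba replicate 3, 6.52 in mafba replicate 2 and 0 elsewhere. Of the other neutrophil markers il6r was at 2.27, 75.4 and 42.4 CPM in DMut, 3.81 in mafba replicate 2 and 0 elsewhere. The marker npsn was at 25.7 CPM in DMut replicate 1, 7.13 in DMut replicate 3 and 0 elsewhere. In DMut replicate 3 mmp13a was at 10.01 CPM, and in DMut replicate 1 lyz was at 1.25 CPM, each at 0 elsewhere. MMP9, cxcr1 and CXCR1 were at 0 in all tubes. The part of the gene number or of these markers in the S phase counts was not tested.

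**Figure D2:**
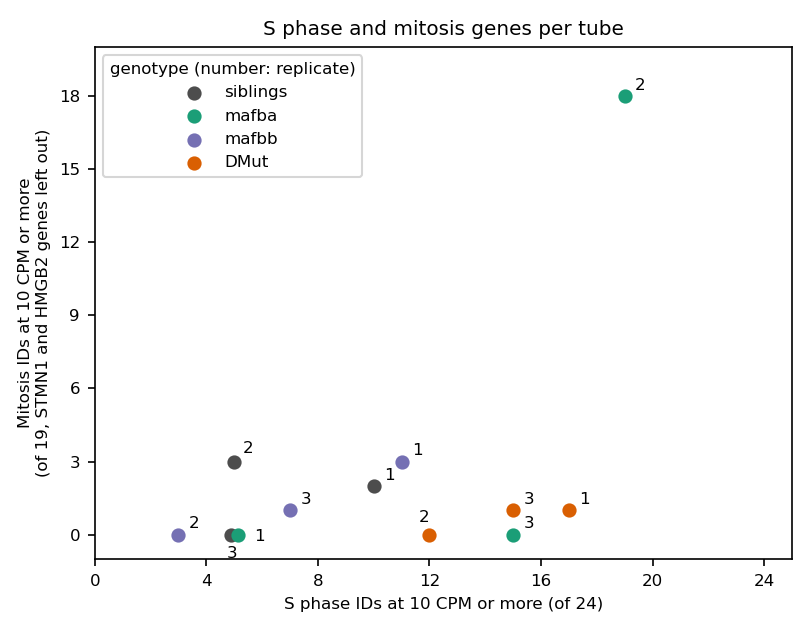
Number of S phase IDs (horizontal axis, of 24) against mitosis IDs without STMN1, HMGB2 and hmgb2b (vertical axis, of 19) at 10 CPM or more. Each point is a tube, coloured by genotype and numbered by replicate, and sibling replicate 3 and mafba replicate 1, both at 5 and 0, are drawn side by side. Only mafba replicate 2 is high on both axes, with 19 and 18, and mafba replicate 3 and the DMut tubes lie to the right along the bottom.

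As a share of gene counts, the S phase IDs took 0.101%, 0.0174% and 0.0168% in siblings, 0.0214%, 0.188% and 0.150% in mafba, 0.107%, 0.0158% and 0.0731% in mafbb, with 0.119%, 0.0628% and 0.112% in DMut. The tubes fell over an 11.9-fold range, and the genotypes overlapped, with sibling replicate 1 above DMut replicate 2. The mean share over 3 tubes, with its SD, was 0.0452% ± 0.0486 in siblings, 0.120% ± 0.0872 in mafba, 0.0653% ± 0.0460 in mafbb, with 0.0980% ± 0.0306 in DMut. By 95% Wilson intervals the error of counting reads was small beside these differences, for example 0.0612% to 0.0644% in DMut replicate 2. Since reads carried no molecular identifiers, these intervals leave out the sampling of molecules and the amplification. Leaving out PCNA and RRM1, which had the most counts, lowered the share in every genotype, and the mean in DMut was then 0.0560%.

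**Figure D3:**
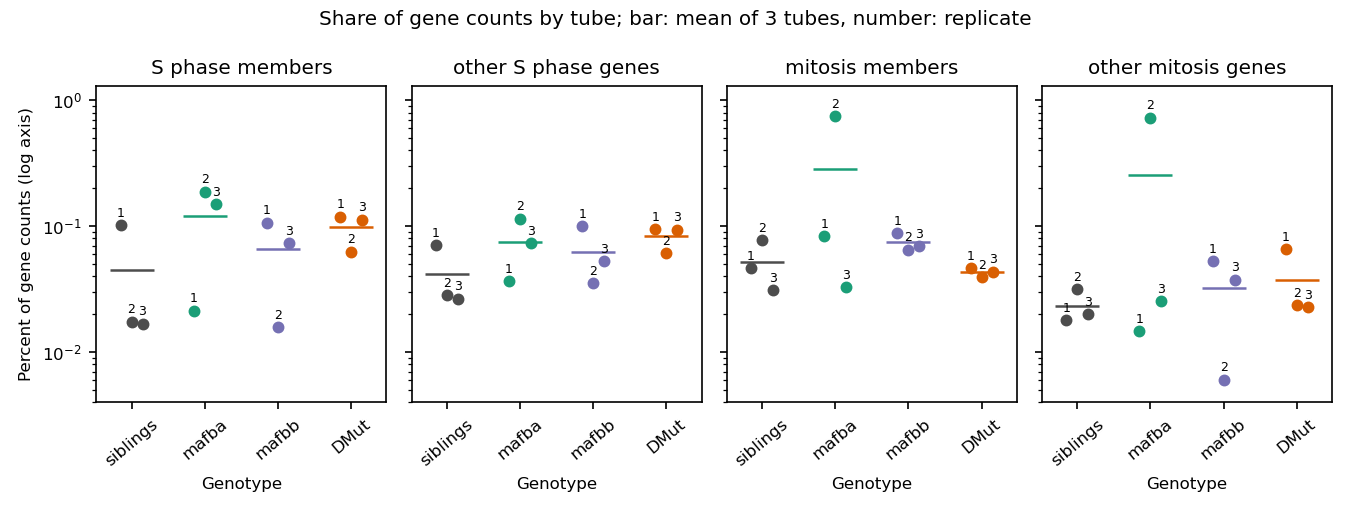
Percent of gene counts (log axis) taken by the S phase members, other S phase genes, mitosis members and other mitosis genes. Each point is a tube, numbered by replicate, and bars are means of 3 tubes. Mitosis shares are highest in mafba replicate 2 (0.745% for the members), whereas S phase shares of the genotypes overlap.

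PCNA, the sliding clamp of the replication polymerases, was detected in all 12 tubes. It was at 302, 29.5 and 21.0 CPM in siblings, at 61.1, 740.4 and 664 in mafba, at 379.7, 67.2 and 120.1 in mafbb and at 172, 248 and 470.1 in DMut. The lowest DMut tube lay below the highest sibling tube, and within siblings, mafba and mafbb 1 or 2 tubes were several times the rest. RPA2, a subunit of the complex that coats single-stranded DNA, was also detected in all tubes, at 86.9, 18.4 and 29.3 CPM in siblings, 53.9, 127 and 111 in mafba, 90.7, 42.5 and 213 in mafbb, with 99.7, 72.7 and 105 in DMut. It varied less between tubes than PCNA did, and its groups overlapped too. RPA3, another subunit, was detected in 8 tubes, at 51.3 CPM in DMut replicate 2 as the highest.

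Among enzymes of deoxynucleotide supply, RRM1, the large subunit of ribonucleotide reductase, was at 145, 47.8 and 25.5 CPM in siblings, 0.160, 521 and 188 in mafba, 121, 0.0738 and 162 in mafbb, with 109, 58.7 and 344 in DMut. It dropped to trace counts in mafba replicate 1 and mafbb replicate 2 and peaked in mafba replicate 2. The small subunit RRM2, whose supply limits the enzyme to S phase, was more selective. RRM2 ENSDARG00000078069 was at 2.62, 0 and 0 CPM in siblings, 0, 187 and 0 in mafba, 0 in all 3 mafbb tubes, and 81.0, 4.91 and 54.9 in DMut. RRM2 ENSDARG00000020711 was at 27.7 CPM in mafba replicate 2, 13.6 and 12 in DMut replicates 1 and 3, and 0 in the other 9 tubes. Both IDs were thus detected in the same 3 tubes. How far reads of the 2 IDs can be told apart was not tested.

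The other enzymes of this group were seen in fewer tubes. Thymidylate synthase (TYMS) was detected in sibling replicate 1, mafba replicate 2, mafbb replicate 1 and DMut replicate 3, at 16.0 to 35.9 CPM. Thymidine kinase (TK1) was at 35.7 CPM in mafba replicate 2, 10.8 in DMut replicate 1 and 0 elsewhere. Dihydrofolate reductase (dhfr) was at 0 in all siblings, at 0.0532, 45.1 and 14.5 CPM in mafba, 14.3, 0.0738 and 73.6 in mafbb, with 43.9, 0 and 6.81 in DMut. All mafba and mafbb tubes lay above the siblings, 1 in each of these groups by a single count.

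Genes that license replication origins in G1 had a pattern of their own. CDC6, which loads the helicase onto origins, was at 0 in siblings, at 0, 0 and 26.2 CPM in mafba, at 0 in mafbb, and at 22.6, 40.1 and 31.8 in DMut. It was detected in every DMut tube and in no sibling or mafbb tube, and it was at 0 in mafba replicate 2, the tube with the mitosis genes. CDT1, its partner in loading, was at 56.1 CPM in mafba replicate 3 and 83.9 in DMut replicate 2 and at most 1.61 CPM in the other 10 tubes. CDC45 and GINS2, parts of the active helicase, were detected in 2 and 5 tubes. GINS2 was at 33.1, 3.84 and 0.0771 CPM in siblings, 28.1, 15.5 and 11.6 in mafba, 0 in all 3 mafbb tubes, and 31.8, 0.117 and 9.37 in DMut.

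At the fork, FEN1, the nuclease that trims Okazaki fragments, was at 0 in siblings, 40.3, 45.3 and 0 CPM in mafba, 42.3, 0.0738 and 34.8 in mafbb, with 15.9, 24.4 and 60.8 in DMut. No sibling tube had a count, and every DMut tube was above 10 CPM. POLA1, the catalytic subunit of the priming polymerase, was at 0.202, 0 and 0 CPM in siblings, 3.35, 18.5 and 0 in mafba, 37.9, 0 and 0 in mafbb, with 63.1, 40.7 and 7.13 in DMut. PRIM1, the primase subunit, was at 0, 26.1 and 0 CPM in siblings, 0, 17.5 and 10.6 in mafba, 0.0832, 0 and 51.3 in mafbb, with 33.3, 1.52 and 22.6 in DMut. POLA1 thus lay higher in every DMut tube than in every sibling tube, and PRIM1 overlapped. LIG1, the ligase that seals the fragments, was detected in mafba replicates 2 and 3, mafbb replicate 1 and DMut replicate 1, at 31.4 to 92.6 CPM.

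Chromatin and histone genes completed the S phase set. The histone chaperone chaf1a was at 42.2, 60.5 and 0 CPM in siblings, 0.0532, 91.0 and 117 in mafba, 149, 0.148 and 0.0573 in mafbb, with 129, 28.3 and 66.1 in DMut. UHRF1, which couples DNA methylation to replication, was at 91.8, 0 and 0 CPM in siblings, 0.106, 49.9 and 135 in mafba, 35.3, 0 and 0 in mafbb, with 95, 41.0 and 19.7 in DMut. Both were detected in all 3 DMut tubes and in 1 or 2 tubes of each other genotype. The histone mRNA binding protein slbp was at 42.8, 0 and 70.5 CPM in siblings, 0.0532, 7.07 and 22.2 in mafba, 0 in mafbb, with 42.2, 21.3 and 41.1 in DMut. It was absent from all mafbb tubes at this depth.

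The kinase and cyclins that start S phase were sparse. CDK2 was detected in 7 tubes, at 71.5, 0.101 and 20.7 CPM in siblings, 0, 55.1 and 96.8 in mafba, 44.0, 0 and 0.0573 in mafbb, with 19.8, 15.7 and 0 in DMut. Its partner CCNE1, cyclin E1, was at 26.5 CPM in mafba replicate 3 and 17.0 in DMut replicate 3, and at most 2.96 CPM in other tubes. CCNE2 was at 12.4 CPM in mafba replicate 2, with 1 count in mafba replicate 1 and 0 elsewhere. Cyclin E1 and cyclin E2 were therefore not detected in the same tube.

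Set side by side, the classes parted the tubes. Mafba replicate 2 held 19 S phase and 18 mitosis IDs, mafba replicate 3 held 15 and 0, and DMut replicates 1 to 3 held 17 and 1, 12 and 0, and 15 and 1. Sibling replicate 1 and mafbb replicate 1 held 10 and 2, and 11 and 3. The median log2(CPM + 1) of the S phase IDs was 5.09 in mafba replicate 2, 4.24 in mafba replicate 3, 4.80, 3.31 and 4.13 in DMut, 1.92 in sibling replicate 1 and at most 0.07 in the other 6 tubes. That of the 19 mitosis IDs was 8.12 in mafba replicate 2 and at most 0.09 elsewhere. Sibling replicates 2 and 3, mafba replicate 1 and mafbb replicates 2 and 3 held 3 to 7 S phase IDs.

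**Figure D4:**
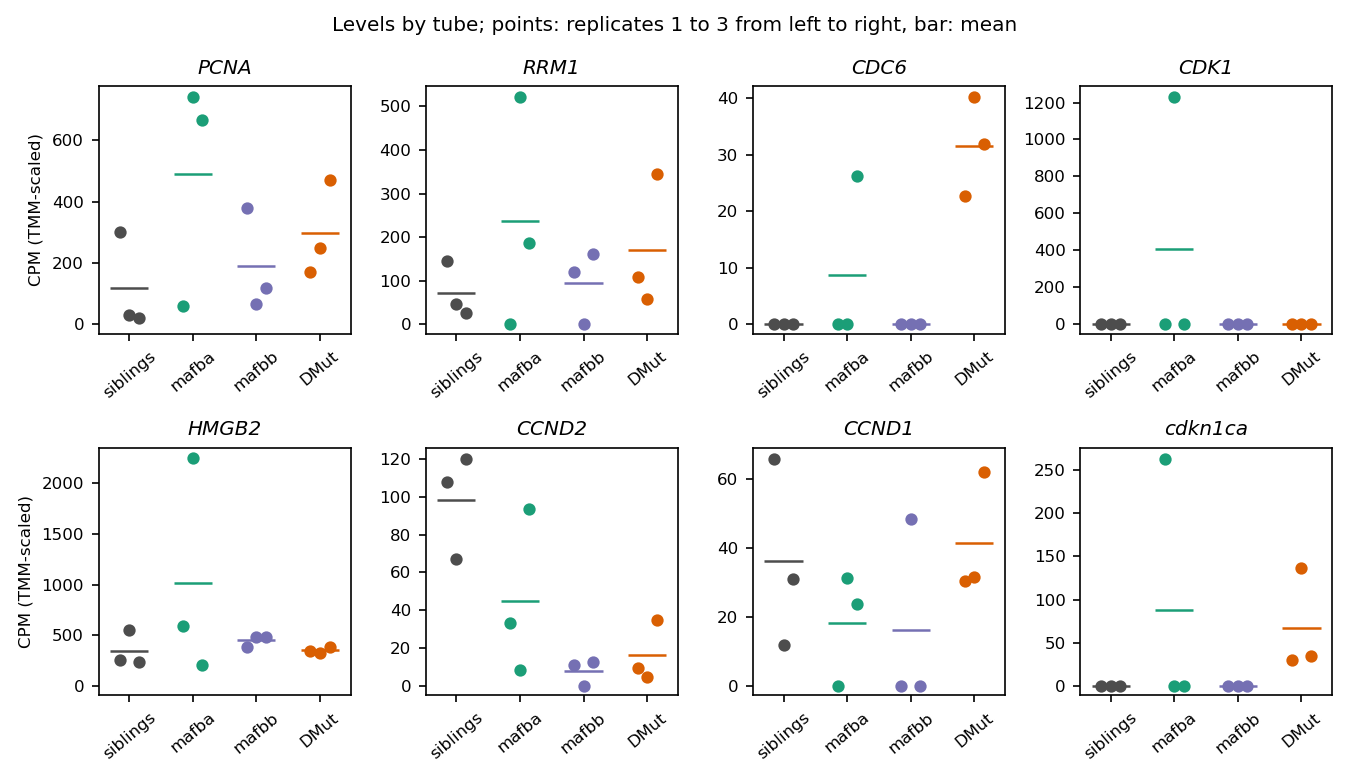
CPM of 8 members in each tube, with points for replicates 1 to 3 from left to right within a genotype and bars for the mean of 3 tubes. PCNA and RRM1 overlap between genotypes, CDC6 is present in every DMut tube, CDK1 in 1 mafba tube, and cdkn1ca in mafba replicate 1 and all DMut tubes. CCND2 is ENSDARG00000051748.

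Of the G1 genes, cdkn1ca and CCND2 parted some genotypes tube by tube, though neither was called by edgeR's main test, given below. The cell cycle inhibitor cdkn1ca (ENSDARG00000010878), of the p57 family, was at 0 CPM in all 3 siblings and all 3 mafbb tubes, at 263, 0.0906 and 0.135 in mafba, and at 29.6, 137 and 34.9 in DMut. All DMut tubes and 1 mafba tube held it at 10 CPM or more, and the other mafba tubes held 1 and 2 counts. Against the floor of 3 counts over the sibling tubes (0.0794 CPM), DMut was at least 770.2-fold higher, a bound for counting error only. All 3 DMut tubes thus held this inhibitor beside CDC6 and FEN1.

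Cyclin D2 (CCND2, ENSDARG00000051748), which passes growth signals to the G1 kinases, was at 108, 67.0 and 120.1 CPM in siblings, 33.3, 8.43 and 93.5 in mafba, 11.2, 0 and 12.7 in mafbb, with 9.41, 4.44 and 35.0 in DMut. Every mafbb and every DMut tube lay below every sibling tube, as was the case for 9.05% (mafbb) and 7.33% (DMut) of all tested genes. Mafba overlapped with siblings. Its level was 98.3 ± 27.8 CPM (SD, n = 3) in siblings, 7.99 ± 6.96 in mafbb, with 16.3 ± 16.4 in DMut, a 12.3-fold and a 6.03-fold difference of means. The other ID, ENSDARG00000070408, was at 2.16 CPM in sibling replicate 3 and 0 elsewhere. CCND1, cyclin D1, was at 65.9, 12 and 31.1 CPM in siblings, 0.0532, 31.3 and 23.7 in mafba, 0.0832, 48.4 and 0 in mafbb, with 30.6, 31.6 and 62.1 in DMut, with overlap throughout.

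Each pair of genotypes was then compared by edgeR's quasi-likelihood test over 9519 genes, with p adjusted over all of them and calls at an adjusted p under 0.05. The test took in 33 of the 51 member IDs, 21 of S phase, 9 of mitosis and 3 of G1. The other 18 failed the filter on low counts, among them 14 mitosis IDs, of which 12 were detected in mafba replicate 2 alone. The 6 comparisons share tubes, since each genotype enters 3 of them. No member was called in any of them, where over all genes 0.714% were called in DMut against siblings, 0% in mafba against siblings, 0.0735% in mafbb against siblings, 0.399% in DMut against mafba, 0.725% in DMut against mafbb and 0.042% in mafba against mafbb. The lowest adjusted p of a member was 0.132, for cdkn1ca in DMut against mafbb. With the same data DESeq2, which gave an adjusted p for 23 of the member IDs, called 5, 5, 7, 0, 6 and 6 of them in that order, where over all genes with an adjusted p it called 9.48%, 6.13%, 17.3%, 5.33%, 18.7% and 16.5%. Limma voom called 5, 0, 0, 0, 4 and 0 of the 33, where over all genes it called 4.44%, 0.494%, 2.27%, 1.82%, 5.04% and 2.51%. The biological coefficient of variation in the fit was 2, and a member that was not called is not shown to be alike in the groups. DESeq2's calls include genes detected in a single tube of a group, such as STMN1 ENSDARG00000004169 in DMut against siblings, at a fitted log2 of 20.1.

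In DMut against siblings the S phase members leaned upward without passing the test. Of 21 tested, 18 (85.7%) had a log2 fold change above 0, beside 51.8% of all genes. Their median was 1.47, and that of all 33 members 1.23, against 0.07 over all genes. At an unadjusted p under 0.05 there were 6 members (18.2%), 4 higher and 2 lower, beside 12.5% of all genes. Of the 21 S phase members 3 (14.3%) were among them, all higher, a share near that of all genes. CDC6, FEN1, POLA1, RRM2 (ENSDARG00000078069) and cdkn1ca were higher in every DMut tube than in every sibling tube, 5 of 33, where 9.86% of all genes were. CCND2 was lower in every tube, 1 of 33, where 7.33% of all genes were. For cdkn1ca edgeR's adjusted p was 0.164, for FEN1, dhfr and CDC6 0.393, and for PCNA, at a log2 fold change of 1.34, it was 1. CCND2 had a log2 fold change of -2.59 ± 2.24 (adjusted p = 0.983 by edgeR).

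In mafba against siblings 30 of 33 members had a log2 fold change above 0, and their median was 2.06 against 0.11 over all genes. Much of this came with 1 tube, since without mafba replicate 2 the median was 0.70 against -0.02. At an unadjusted p under 0.05 there were 7 members, all higher (21.2% beside 7.82% of all genes). Without mafba replicate 2 there were 4 of 33, beside 6.16% of all genes. Among the 7, HMGB2 had a log2 fold change of 1.55 ± 0.59 (SE, adjusted p = 0.608 by edgeR). With no filter on low counts plk1 was called (adjusted p = 0.0102 by edgeR, where 0.0746% of all genes were), from counts in mafba replicate 2 almost alone. Only cdkn1ca, dhfr and mki67 were higher in every mafba tube than in every sibling tube, where 5.61% of all genes were, and in each at least 1 mafba tube had 1 or 2 counts. No member was lower in every mafba tube, where 3.7% of all genes were.

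In mafbb against siblings 17 members had a log2 fold change above 0 and 13 below it, with a median of 0.27 against -0.20. At an unadjusted p under 0.05 there were 5 higher and 2 lower members (21.2% beside 18.6% of all genes). FEN1 and dhfr were above every sibling tube (2.52% of all genes), and CCND2 and GINS2 below (9.05%). For FEN1 and dhfr this rested on 1 count each in mafbb replicate 2, and for GINS2 on 1 count in sibling replicate 3. For slbp, at 0 in mafbb, siblings were at least 589-fold higher by the floor of 3 counts, carried by 2 tubes (adjusted p = 0.263 by edgeR). CCND2 had a log2 fold change of -3.62 ± 2.34 (SE, adjusted p = 0.443 by edgeR).

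Between mutants the mitosis members followed mafba replicate 2. In DMut against mafba all 9 tested mitosis members had a log2 fold change below 0, and HMGB2 was at -1.54 ± 0.59 (SE, adjusted p = 0.614 by edgeR), or -2.02 and called without mafba replicate 3 (adjusted p = 0.0273, where 0.431% of all genes were called). The median of all 33 members was -0.41 against -0.07 over all genes, and it turned to 0.74 against 0.13 without mafba replicate 2. Only ccnb3 and hmgb2b were below every mafba tube (7.11% of all genes), and no member above (7.39%). For ccnb3 this rested on 1 count each in mafba replicates 1 and 3. At an unadjusted p under 0.05 there were 3 members, all lower (9.09% beside 8.03% of all genes).

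Against mafbb both other mutants leaned upward in S phase members. In DMut against mafbb 17 of 21 tested S phase members (81.0%) had a log2 fold change above 0, beside 57.5% of all genes. Their median was 1.28, and that of all members 0.65, against 0.37 over all genes. Of all members 8 higher and 1 lower had an unadjusted p under 0.05 (27.3% beside 20.6%). CDC6, CDT1, GINS2, RRM2 (ENSDARG00000078069), cdkn1ca and slbp were above every mafbb tube (13.5% of all genes) and HMGB2 below (3.68%). For CDT1 this rested on 2 and 1 counts in DMut replicates 1 and 3, and for GINS2 on 1 count in DMut replicate 2. In mafba against mafbb 17 of 21 S phase members (81.0%) were above 0, with a median of 1.37, beside 59.8% of all genes. The median of all members was 1.54 against 0.47, and 10 higher members had an unadjusted p under 0.05 (30.3% beside 17.1%). Without mafba replicate 2 that median was 0.00 against 0.02, with 6 such members of 33, beside 13.4% of all genes. GINS2, cdkn1ca and slbp were above every mafbb tube (10.2% of all genes), and no member below (2.07%). For cdkn1ca this rested on 1 and 2 counts in mafba replicates 2 and 3, and for slbp on 1 count in mafba replicate 1. The mafbb tubes had the fewest genes with a count and the most spike-in RNA, and the part of either in these differences was not tested.

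Genes of the same pathways outside the members were counted in the same way. Of 47 IDs of other S phase genes, sibling replicates 1 to 3 held 12, 8 and 9 at 10 CPM or more, mafba 8, 32 and 15, mafbb 17, 6 and 4, and DMut 24, 16 and 27. DMut thus again exceeded siblings in every tube, at 1 CPM as well (30, 20 and 35 against 17, 8 and 9) but not at 50 CPM (5, 3 and 5 against 7, 1 and 1). None of the 38 tested was called by edgeR in any comparison. In DMut against siblings 31 of 38 had a log2 fold change above 0, with a median of 2.14, beside 51.8% and 0.07 over all genes. An unadjusted p under 0.05 was found for 13 (11 higher, 2 lower), or 34.2%, beside 12.5% of all genes. ORC6 of the origin recognition complex and RFC5 of the clamp loader were among the higher ones, at an adjusted p of 0.393, and e2f3, a transcription factor of the S phase wave, among the lower ones. The lean was not particular to DMut. In mafba against siblings 29 of 38 were above 0, with a median of 1.80, beside 53.3% and 0.11 over all genes. There 7 (18.4%) had an unadjusted p under 0.05 by edgeR, beside 7.82% of all genes. In mafbb against siblings 16 were above 0 and 14 below.

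Of 52 IDs of other mitosis genes, mafba replicate 2 held 48 at 10 CPM or more and the other tubes 2 to 11. Of the 51 with a count 48 (94.1%) were highest there, beside 11.1% of all genes. KPNA2, a nuclear import factor, was at 3091 CPM there and at most 125 elsewhere, and CENPF, a kinetochore protein, at 349.5 CPM there and at most 0.0676 elsewhere. LMNB1, a nuclear lamin, was an exception, at 44.4 CPM in mafba replicate 2 and 199 in DMut replicate 1. None of the 17 tested was called by edgeR in any comparison, and in DMut against siblings and mafba against siblings 4 (23.5%) and 6 (35.3%) had an unadjusted p under 0.05, beside 12.5% and 7.82% of all genes.

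**Figure D5:**
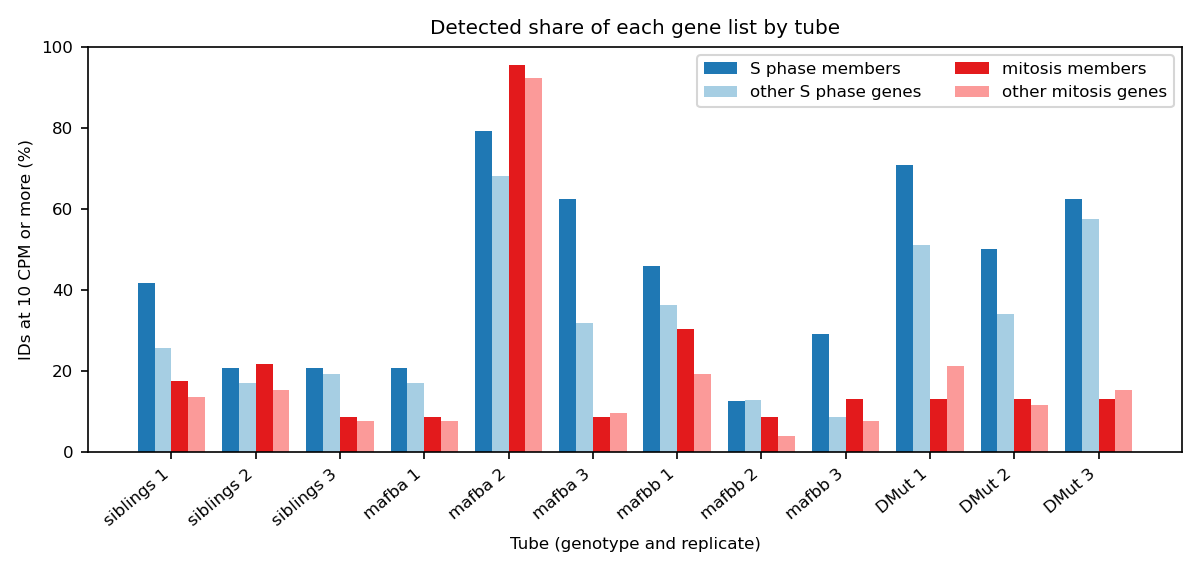
Percent of the IDs of each list at 10 CPM or more in each tube, for S phase and mitosis members and for other genes of both phases. Mafba replicate 2 reaches 95.7% of mitosis members and 92.3% of other mitosis genes, and S phase bars are high in mafba replicates 2 and 3 and in DMut.

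Genes of G1 and of cell cycle brakes were less bound to a tube. Of 31 IDs, 2 of them the CCND2 members, 8 to 18 were at 10 CPM or more in each tube. None of the 18 tested was called by edgeR in any comparison. In DMut against siblings 2 (11.1%) had an unadjusted p under 0.05, beside 12.5% of all genes. The E2F partner TFDP1 (ENSDARG00000016304) was at 33.6, 37.0 and 47.5 CPM in siblings, 38.9, 27.6 and 34.9 in mafba, and at most 0.148 CPM in every mafbb and DMut tube (DMut against siblings, adjusted p = 0.393 by edgeR). The symbol also stands for ENSDARG00000019293, and these values are of ENSDARG00000016304 alone. The p53 target and inhibitor cdkn1a was at 0 in all siblings and at 0, 33.2 and 54.5 CPM in DMut, and it was at 45.2 CPM in mafba replicate 2. For cdkn1a edgeR fitted log2 values over siblings of 11.6 (DMut), 10.6 (mafba) and 11.1 (mafbb). Their SE was 4.90, 4.71 and 4.81, and the adjusted p was 0.393, 0.608 and 0.263 by edgeR. With siblings at 0, such imprecise values cannot show whether the mutants were alike. The MCM2 to MCM7 genes together took 0.0396%, 0.00273% and 0.00864% of gene counts in siblings, 0.0742%, 0.0397% and 0.124% in mafba, 0.0257%, 8.20e-06% and 0.00545% in mafbb, with 0.0519%, 0.0605% and 0.0898% in DMut. Every mafba and every DMut tube had an MCM share above that of every sibling tube, mafba replicate 2 only narrowly. Mafba replicate 1 was among them, with 5 S phase members and 0 of the 19 mitosis genes detected.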

How the data were processed

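The authors deposited whole-number raw counts for each gene ID in each tube, with no normalization. Reads were processed with Trim Galore and STAR, and the builds GRCz11 and danRer11 are named, per the submitters' processing notes. For versions, the counting tool, strand and annotation, the notes used here give nothing, and positions are not printed. The members and lists were chosen with earlier results of these data known. Counts of ERCC spike-ins were left out of library sizes. Genes were kept by filterByExpr (minimum count 10, minimum total 15) and tested with edgeR 4.0.16 in R 4.3.3 (TMM, 1 quasi-likelihood model over 12 tubes with a term per genotype, robust=TRUE, Benjamini-Hochberg). The SE is the log2 fold change divided by the root of F. Alternatives were other scalings, filters, spread estimates, the replicate number as a block, limma 3.58.1 voom with sample weights, DESeq2 1.42.0 and each tube left out. Leaving out mafba replicate 2 with mafbb replicate 3, and the S phase share without PCNA and RRM1, were chosen after seeing the data. The edgeR fit alone was tested on simulated data, with a pass mark set only at a spread far below that of these data. Tubes with 0 counts in a group were given a floor of 3 counts. Intervals are 95% Wilson intervals. Values in every tube, or in the tubes where a gene was detected, were given for the 6 IDs of highest mean in each list. The same holds for the 3 members per direction with the smallest p in each comparison, and for further members where they add to a role. KPNA2, CENPF, LMNB1 and the named cell type markers were chosen after their values were seen.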

Additional observations from a re-analysis of the deposited data

How the results depend on the processing

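No member passed edgeR's test under TMM, TMMwsp, DESeq2 size factors, library size alone, the stricter filter, robust=FALSE, the compared groups alone or the replicate block (0 called in each comparison). Same-numbered tubes did not deviate together (r from -0.0241 to 0.0313 over 18 pairs). With so large a spread between tubes, a small r cannot show whether same-numbered tubes shared a dissociation. DESeq2 called 5 members in DMut against siblings, 5 in mafba against siblings, 7 in mafbb against siblings, 6 in DMut against mafbb and 6 in mafba against mafbb, and limma voom called 5 and 4 in the first and the fourth of these. Without a filter 1, 2, 1 and 2 were called in mafba against siblings, DMut against mafba, DMut against mafbb and mafba against mafbb, beside 0.0746%, 0.479%, 0.833% and 0.249% of all genes. Spike-in scaling gave 2 in DMut against mafbb and 3 in mafba against mafbb, beside 3.84% and 2.77%. Leaving out 1 tube gave 0 to 1 in DMut against mafba (HMGB2, without mafba replicate 3) and 0 in the others. Spike-in scaling moved the median log2 of all genes by -1.38 in mafbb against siblings, 1.78 in DMut against mafbb, 1.85 in mafba against mafbb, 0.41 in DMut against siblings and 0.48 in mafba against siblings, and the members' median in mafbb against siblings turned to -0.54.

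Mean S phase IDs were 10.3 at 1 count and 2.33 at 50 CPM in siblings, 5.33 at 50 CPM in mafba, and 18 and 6.33 in DMut, whose share without PCNA and RRM1 was 0.0560%. Mean mitosis IDs were 5.33 at 1 count in siblings, and in DMut 4 at 1 count, 3.67 at 1 CPM, 1.67 at 50 CPM and 2.67 on library size alone. Without HMGB2 the mitosis share was 0.0170%, 0.0251% and 0.0105% in siblings, mafbb and DMut, and without stmn1a, hmgb2a and hmgb2b 0.00653%, 0.00797% and 0.00162%. Leaving out 1 mafba tube gave mitosis shares of 0.0582% to 0.414% and 2 to 12 mitosis IDs.

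Of 632 alternatives for 36 gene results, 599 kept direction and side, 22 became calls and 11 turned sign, none of them of a called gene. The cause was not tested. The turned log2 values were 0.29 for slbp in mafba against siblings (voom), and for STMN1 ENSDARG00000033655 4.29 (DMut) and 7.08 (mafba) against mafbb without mafbb replicate 1, where leaving out other tubes reached -12.24 and -12.22. In mafba against mafbb PRIM1 gave 1.62 (spike-ins), -1.68 to 7.52 with 1 tube left out (highest without mafbb replicate 3), 6.71 (2 tubes left out) and 3.65 (voom), and POLA1 1.52 (spike-ins), 1.61 (replicate block), -2.92 to 9.58 with 1 tube left out (highest without mafbb replicate 1) and 1.68 (voom). Promoter motifs were not run. With 3 cells a tube and 1 library a pool, absence at this depth is not absence in the genotype.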
